A study of Mus musculus with 4 samples.

Results

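The loci of small RNA genes were examined in peak lists of Ruvbl2 binding from mouse bone marrow stem cells. Members were all genes of the RefSeq gene table on chromosomes 1 to 19 whose symbols begin with Mir and a digit, Mirlet, Snora, Snord or Rnu and a digit. This gave 1255 of 47038 genes, of which 1090 were microRNA genes, 137 were small nucleolar RNA (snoRNA) genes, 15 were small nuclear RNA (snRNA) genes and 13 were long host transcripts of microRNAs. The host transcripts were counted apart, which left 1242 small RNA loci. The snoRNAs comprised 93 box C/D loci (Snord symbols), 36 box H/ACA loci (Snora symbols), 5 genes of U3 snoRNA (Rnu3 symbols) and 3 U3 pseudogenes. Of the snRNA loci, 10 were genes and 5 were pseudogenes. Each locus was widened by 500 bp on both sides, because the RNAs themselves are short, with a median length of 81.0 bp for microRNA and 94.0 bp for snoRNA loci.

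Ruvbl2 is an ATPase that works with Ruvbl1 in chromatin remodelling complexes and in a co-chaperone that helps to build box C/D snoRNPs. CUT&Tag maps a chromatin protein by tethering a transposase to an antibody, so that DNA near the protein is cut and sequenced. The 2 groups held 2 libraries each. Haematopoietic stem cells (HSCs) were CD48-CD150+LSK cells of Nup214fl/+ mice, and leukaemia stem cells (LSCs) were Lin-Sca-1-c-Kit+ cells, also CD16/32+CD34+, of Nup214fl/+ mice with MLL-AF9-driven leukaemia. Each library was made from 2000 to 5000 cells with 17 to 20 cycles of PCR, so the input was small. The floxed Nup214 allele was therefore shared by both groups, and the labels give neither a Cre nor an age. All 4 libraries carry the same cell type entry, haematopoietic stem cell, and the LSC group therefore rests on the titles and the sort gate. Peak lists give no expression by which either cell type could be checked. The labels name no control library, give no host species for the Ruvbl2 antibody, which was followed by a goat anti-rabbit secondary, and do not say whether libraries came from separate mice. Spread between libraries may therefore be technical.

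The authors' lists held 161655, 286107, 216077 and 210541 peaks in HSC replicate 1, HSC replicate 2, LSC replicate 1 and LSC replicate 2, an order used for all values below unless stated. Sequencing depth was unknown. To set lists of different length on one footing, the 20000 peaks with the largest deposited −log10 p were taken from each library, and a locus that overlapped one by 1 bp or more is called listed. The weakest listed peak had a fold over background of 22.7, 12.7, 28.4 and 18.2. Listed peaks were wider in both libraries numbered 2, with median widths of 484, 714, 371 and 634 bp, and covered 10.6, 17.7, 8.65 and 15.7 Mb. Most counts are therefore set beside the same count over 12109 shifted positions. These were the same windows moved by 20 to 100 kb along the chromosome in 10 fixed steps.

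Small RNA genes are transcribed in different ways. Spliceosomal snRNA genes (U1, U2, U5, U11 and U12), the U7 snRNA gene and U3 snoRNA genes have their own RNA polymerase II promoters, which bind the SNAPc complex and carry no polyadenylation signal, while U6 is transcribed by RNA polymerase III. Most vertebrate snoRNAs have no promoter of their own and are cut out of introns of host genes, many of which encode ribosomal proteins or translation factors. MicroRNAs are processed from long transcripts or introns, whose start sites can lie many kilobases from the hairpin.

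Mature sequences were matched to 923 of the 1090 microRNA loci in RefSeq's table for GRCm38.p6, which gave 1517 mature RNAs with 1241 distinct seeds. The seed, bases 2 to 8, is the stretch that pairs with target messages and is set in capitals here, with each sequence read 5′ to 3′. The first set shows the microRNAs whose loci were listed in all 4 libraries.
miR-101c: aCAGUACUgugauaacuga
miR-707: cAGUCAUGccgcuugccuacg
miR-1934-5p: uCUGGUCCccugcuucguccucu
miR-1934-3p: aGGAUGACgguggggcugguga
miR-8098: gCUAUGGUcgcuggcucccaa
miR-5123: uGUAGAUCcauaugccauggugug

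A second set shows well-known microRNAs whose loci were listed in 3 libraries, namely the cluster of Mir23a, Mir27a and Mir24-2 and the single locus Mir191.
miR-23a-3p: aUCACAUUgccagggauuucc
miR-27a-3p: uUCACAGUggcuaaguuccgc
miR-24-3p: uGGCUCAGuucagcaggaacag
miR-191-5p: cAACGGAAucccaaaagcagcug

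The last set shows the microRNAs whose loci were listed in both LSC libraries and in neither HSC library.
miR-130b-3p: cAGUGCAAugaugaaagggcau
miR-345-5p: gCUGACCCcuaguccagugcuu
miR-7045-5p: aGCGGGUGggggagggggacu

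Across the 21 microRNA loci listed in 3 or 4 libraries, 18 had a mature sequence, with 27 mature RNAs and 27 distinct seeds. Thus 0 seeds were shared between these loci. Over the whole table, the miR-27a-3p seed was also held by Mir27b, the miR-24-3p seed occurred at 6 loci including Mir24-1, and the miR-130b-3p seed occurred at 7 loci including Mir130a and Mir301.

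Ruvbl2 peaks lay at a larger share of small RNA loci than of shifted positions in every library. Of the 1242 loci, 60, 113, 57 and 111 were listed, or 4.83%, 9.10%, 4.59% and 8.94%, against 2.42%, 3.93%, 2.21% and 3.94% of shifted positions. The shifted positions were not matched for place. Within 1 kb of a protein-coding gene end lay 174 of the 1242 loci, but only 893 of the 12109 shifted positions. There, 9.20%, 25.3%, 10.3% and 27.6% of loci were listed, against 6.72%, 18.5%, 6.49% and 17.4% of shifted positions. Part of the excess can therefore reflect place. With every deposited peak counted, shifted positions reached 12.6%, 24.3%, 16.8% and 18.5%, and the loci 18.2%, 34.2%, 20.5% and 26.5%. The listed loci rested on 50, 101, 47 and 104 distinct peaks, because neighbouring loci can share a peak. Both libraries numbered 2 were high and both numbered 1 were low, in each cell type, as with the length of genome the listed peaks covered. The part of peak width in that pattern was not tested.

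The classes differed in size of share. Among snRNA loci, 6, 6, 4 and 6 of 15 were listed, or 40%, 40%, 26.7% and 40%, against 3.45%, 2.07%, 1.38% and 4.14% of their shifted positions. Among snoRNA loci, 15, 28, 8 and 19 of 137 were listed, or 10.9%, 20.4%, 5.84% and 13.9%, against 2.92%, 3.97%, 2.99% and 4.19%. Among microRNA loci, 39, 79, 45 and 86 of 1090 were listed, or 3.58%, 7.25%, 4.13% and 7.89%, against 2.34%, 3.95%, 2.13% and 3.90%. The snRNA loci had the highest share and the microRNA loci the lowest in each of the 4 libraries.

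The mean difference from shifted positions was 33.9 percentage points for snRNA loci, with single libraries from 25.3 to 37.9 points. It was 9.26 points for snoRNA loci, from 2.85 to 16.5, and 2.63 points for microRNA loci, from 1.24 to 3.99. Each was above 0 in 4 of 4 libraries (for snoRNAs in 3 of 4 without U3, where LSC replicate 1 had 2.33% against 3.02%), with a two-sided exact sign-flip permutation p = 0.125, which is the smallest that 4 libraries allow, so no class could pass 0.05. In the comparisons between classes, 4 in all, the snRNA share exceeded the microRNA share by 31.0 points (exact sign-flip permutation p = 0.125, 0.25 after Benjamini-Hochberg adjustment, higher in 4 of 4 libraries). The snoRNA share exceeded the microRNA share by 7.06 points with the same p-values and direction in 4 of 4 libraries. Without the U3 loci, a choice made after the values were seen, the snoRNA excess over microRNAs was 3.98 points and held in 3 of 4 libraries (exact sign-flip permutation p = 0.25, adjusted 0.333). Box C/D loci differed from box H/ACA loci by -1.97 points, with 2 of 4 libraries on each side of 0 (exact sign-flip permutation p = 0.875, adjusted 0.875).

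**Figure D1:**
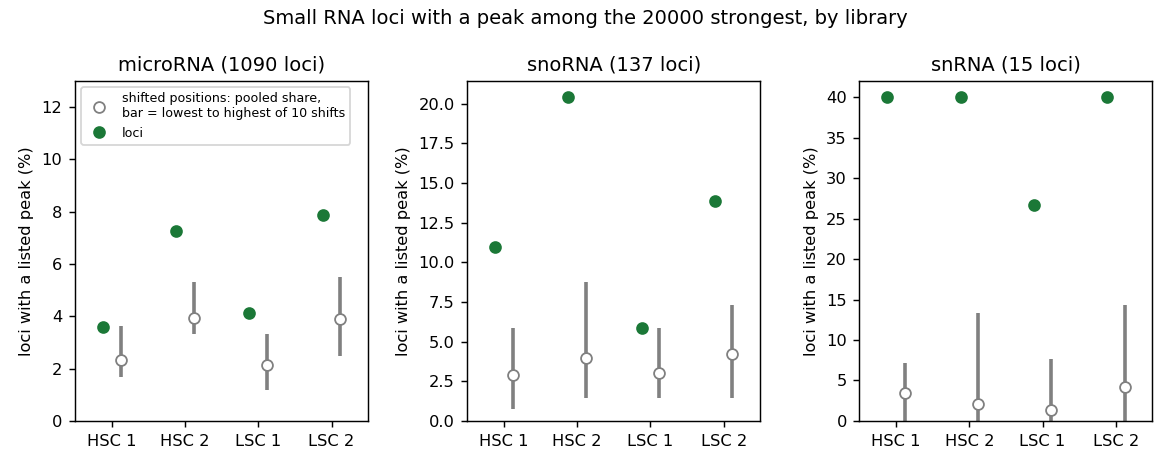
Percentage of microRNA, snoRNA and snRNA loci with a listed peak (filled points) in each library, beside the shifted positions (open points, pooled share, with bars from the lowest to the highest of the 10 shifts). The y axes differ between panels. Loci lie above the pooled shifted share in every panel and library, with microRNAs nearest to it and snRNAs farthest, at 26.7% to 40%. The highest single shift exceeds the loci for microRNAs in HSC replicate 1 (3.65% against 3.58%). It also does so for snoRNAs in LSC replicate 1 (5.88% against 5.84%).

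The highest listed shares were found at snRNA and U3 genes, a set put together after the values were seen. The 10 snRNA genes and the 5 U3 genes, with pseudogenes left out, were listed at 10, 11, 9 and 11 of 15 loci, or 66.7%, 73.3%, 60.0% and 73.3%, against 4.96%, 2.13%, 0.709% and 2.84% of their shifted positions. With Snord118 and Snord13, which also have their own promoters, it was 10, 13, 9 and 12 of 17. Of the 15 genes, 9 were listed in all 4 libraries. Among the other 129 snoRNA loci, 10, 23, 3 and 14 were listed, and 1 was listed in all 4. Over all classes 15 of 1242 loci (1.21%) were listed in all 4 libraries, against 29 of 12109 shifted positions (0.239%), and the 9 snRNA and U3 genes were the majority of these 15. The remaining members were 1 box H/ACA snoRNA and 5 microRNAs.

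The snRNA genes listed in every library covered the major and the minor spliceosome. Rnu1a1, a gene of U1 snRNA, which recognises the 5′ splice site, had peaks of 40.7-, 31.6-, 60.6- and 55.3-fold over background (chr11:87422867-87423030, within the span of Tex14). Rnu2-10, a gene of U2 snRNA, which pairs with the branch point, had 54.7-, 59.7-, 42.1- and 73.3-fold peaks (chr11:101658238-101658424, outside protein-coding genes). Rnu5g, a gene of U5 snRNA, which holds the exons together, had 86.1-, 36.5-, 81.1- and 53.4-fold peaks (chr9:65201726-65201841, outside protein-coding genes). All of these folds are the authors' own values for each peak, taken within one library, so their order between libraries carries no weight.

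Rnu12, the gene of U12 snRNA of the minor spliceosome, had peaks of 41.5, 36.3, 35.5 and 43.6 fold (chr15:83149645-83149794, within 1 kb of an end of Poldip3). Rnu11, the gene of U11 snRNA, the minor counterpart of U1, was listed in both libraries numbered 2 at 20.96 and 27.7 fold. In both libraries numbered 1 it had peaks of 17.8 and 8.24 fold that were too weak to be listed. Rnu7, the gene of U7 snRNA, which processes histone messages and belongs to no spliceosome, was listed in 3 libraries at 23.5, 33.5 and 71.2 fold and had no peak in LSC replicate 1. So 6 of the 10 snRNA genes were listed in at least 2 libraries.

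The other 4 snRNA genes were listed in 0 libraries. They were Rnu6, the only U6 gene among the members, with no peak of any strength in any library, and Rnu1b1, Rnu1b2 and Rnu1b6, genes of the U1b variant on chromosome 3. Rnu1b1 and Rnu1b2 had no peak, and Rnu1b6 had a single unlisted peak of 10.4 fold in LSC replicate 2. Of the 5 snRNA pseudogenes, Rnu6-ps2 was listed in HSC replicate 1 alone, at 24.1 fold, and the other 4 were listed in 0 libraries. The 3 U3 pseudogenes were also listed in 0 libraries. U1b genes are near-identical copies, and how the authors treated reads that fit several copies is not given in the sources used here, so a lack of peaks there is not the same as a lack of binding.

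All 5 U3 genes were listed in all 4 libraries. U3 is the box C/D snoRNA that guides the first cleavages of the ribosomal RNA precursor, and unlike most snoRNAs it is transcribed from its own promoter. Rnu3a on chromosome 10, within 1 kb of an end of Gtf3c6, had peaks of 111, 51.1, 74.1 and 55.7 fold (chr10:40258468-40258679). The other 4 genes lay within the span of Tex14 on chromosome 11, between 87443237 and 87471582. Rnu3b1 had peaks of 106, 82.7, 53.8 and 71.2 fold.

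Rnu3b3 had peaks of 70.2, 57.8, 56.9 and 55.3 fold. Rnu3b4 had 137, 56.7, 44.8 and 54.4 fold, and Rnu3b2 had 49.5, 46.2, 43.6 and 43.8 fold. Tex14, which encodes a protein of germ cell bridges, holds these 4 genes and Rnu1a1. It had 13, 7, 8 and 6 listed peaks over its whole span, of which 6, 5, 5 and 5 touched the windows of the 5 small RNA genes. The U3 copies on chromosome 11 may share reads, so they are not independent observations, and the effect of that on their peaks was not tested.

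**Figure D2:**
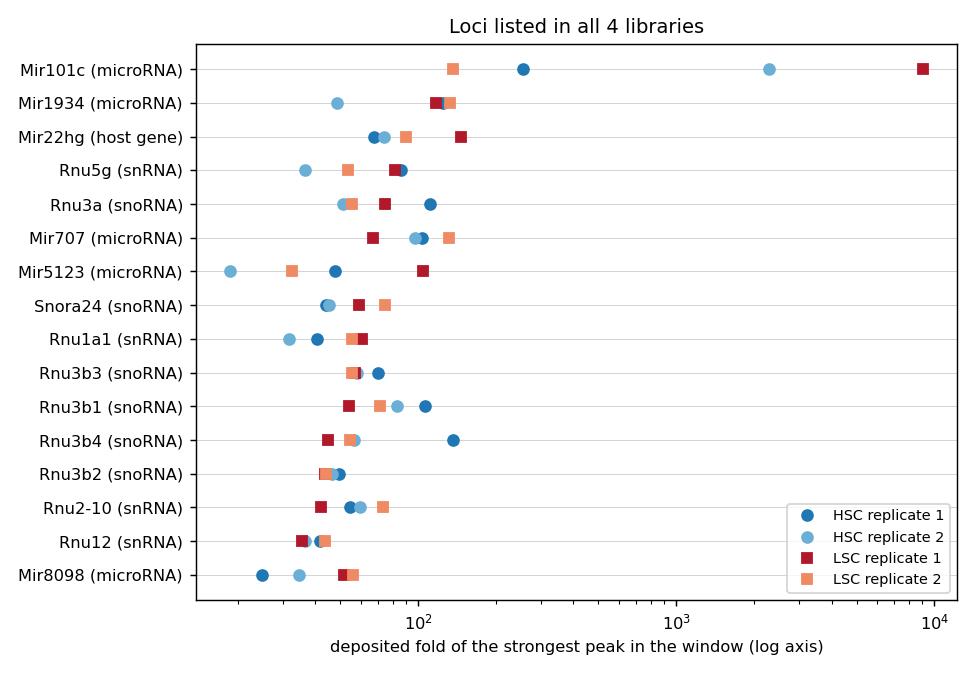
Deposited fold over background (log axis) of the strongest peak at each locus listed in all 4 libraries, with circles for HSC and squares for LSC libraries and loci ordered by their weakest rank. Most loci lie between about 30 and 150 fold in every library. Mir101c stands apart, at up to 9029 fold.

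The cover by listed peaks was concentrated around the snRNA and U3 genes, although the peaks there were wide. Their median widths were 956.5, 1935, 786 and 1937 bp, against 484, 714, 371 and 634 bp over all listed peaks. At the centre of the locus a listed peak covered 53.3%, 66.7%, 46.7% and 66.7% of the 15 genes, whereas the mean between 5 and 10 kb away was 6.15%, 7.95%, 3.72% and 9.36%. The summits of the listed peaks lay at a median of 118, 159, 122 and 187 bp from the nearest end of the RNA. Among the listed genes 2, 0, 1 and 1 had the summit inside the RNA. Thus the summits usually sat beside the RNA gene rather than in it. The gene table gives no strand, so upstream and downstream could not be told apart.

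Other snoRNA loci did not show such a centre. A listed peak covered 2.33%, 11.6%, 0.775% and 6.20% of the 129 loci at their centre and 1.27%, 4.93%, 0.894% and 3.91% on average between 5 and 10 kb away. In both libraries numbered 2 the highest cover lay to one side, at 18.6% and 16.3%, 3.2 and 2.4 kb from the centre in the direction of lower coordinates. Several of these loci share a host gene, so a single peak can enter the curve many times. MicroRNA loci were covered at 1.38%, 3.49%, 1.74% and 3.76% at the centre against 1.06%, 2.85%, 0.850% and 2.23% farther out. The centre was thus higher in each library, by far fewer percentage points than at the snRNA and U3 genes.

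**Figure D3:**
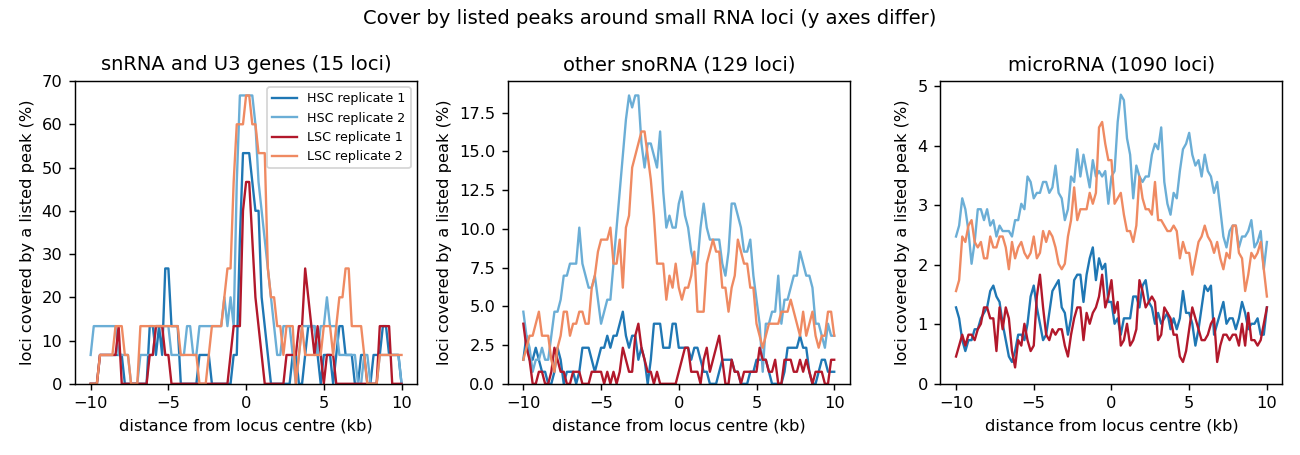
Percentage of loci covered by a listed peak against distance from the locus centre (kb, in the direction of the reference coordinates, not of transcription), one line per library, for 15 snRNA and U3 genes, 129 other snoRNA loci and 1090 microRNA loci. The y axes differ between panels. The first panel has a high centre at 46.7% to 66.7%, the second is highest 2.4 to 3.2 kb to the left in both libraries numbered 2, and the third varies between about 0 and 5%.

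A few other snoRNA loci, most of them inside host genes, were listed in 3 or 4 libraries. Snora24, an H/ACA snoRNA within the lncRNA gene Snhg8, was the single one of the 129 listed in all 4 libraries, with 44.0, 45.3, 59.1 and 74.3 fold (chr3:123507937-123508066). The box C/D neighbours Snord49a and Snord49b, within the lncRNA 2410006H16Rik, shared one peak in each of 3 libraries, at 76.0, 48.5 and 41.7 fold, and had no peak in LSC replicate 1. Snord43, which lies in the ribosomal protein gene Rpl3 within 1 kb of its end, was listed at 56.6, 30.9 and 49.6 fold with an unlisted 22.5-fold peak in LSC replicate 1. Snora21, near an end of Rpl23, was listed in 3 libraries at 36.5, 42.3 and 30.1 fold and had an unlisted 9.02-fold peak in HSC replicate 1. Snora57 shared its peaks with Mir5136 at 42.1, 30.4 and 34.9 fold, and its 12.5-fold peak in HSC replicate 2 fell just short of being listed.

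The box C/D loci without U3 were listed at 8, 19, 0 and 7 of 93, or 8.60%, 20.4%, 0% and 7.53%, against 2.88%, 3.65%, 2.99% and 4.21% of shifted positions, and 0 were listed in all 4 libraries. The share in LSC replicate 1 was thus below its background. The box H/ACA loci were listed at 2, 4, 3 and 7 of 36, or 5.56%, 11.1%, 8.33% and 19.4%, against 2.80%, 4.76%, 3.08% and 4.48%. LSC replicate 1, with 0 listed box C/D loci, had any deposited peak at 22 of them. Besides U3, Snord118 (U8) and Snord13 (U13) also have their own promoters. Snord118, needed for maturation of the large ribosomal subunit RNA, had peaks of 18.9, 17.2, 8.42 and 12.1 fold, of which the one in HSC replicate 2 was listed. Snord13, a guide of ribosomal RNA acetylation, was listed in both libraries numbered 2 at 25.6 and 30.3 fold, had an unlisted 23.8-fold peak in LSC replicate 1 and none in HSC replicate 1.

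The shares of microRNA loci differed by position relative to protein-coding genes. Under the plain division, 757 microRNA loci overlapped a protein-coding gene and 333 did not. Inside, 32, 59, 31 and 63 were listed, or 4.23%, 7.79%, 4.10% and 8.32%, against 2.63%, 4.65%, 2.36% and 4.65% of shifted positions inside genes. Outside, 7, 20, 14 and 23 were listed, or 2.10%, 6.01%, 4.20% and 6.91%, against 1.99%, 3.08%, 1.84% and 2.98%. The loci were above the shifted positions of the same kind in each library, although in HSC replicate 1 the outside shares differed by little. Of the 32 inside loci listed in HSC replicate 1, 13 belong to a single cluster of near-identical hairpins, Mir466m to Mir669h. Shifted positions of that cluster were listed at 0.690% in this library. The inside excess of HSC replicate 1 therefore rests largely on one repeated region, and shares without it were not computed.

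Gene ends were then told apart. Of the microRNA loci, 139 lay within 1000 bp of a protein-coding gene end, and 9, 31, 14 and 39 of them were listed, or 6.47%, 22.3%, 10.1% and 28.1%. Shifted positions at gene ends were listed at 7.12%, 18.5%, 6.22% and 17.6%, so HSC replicate 1 lay below and the other 3 libraries above. Of 647 loci inside genes but away from ends, 3.86%, 5.41%, 3.40% and 5.26% were listed, against 2.17%, 3.24%, 2.09% and 3.37%. The 13 listed loci of the Mir466m to Mir669h cluster are part of the 3.86% in HSC replicate 1. Of 304 loci outside genes, 1.64%, 4.28%, 2.96% and 4.28% were listed, against 1.73%, 2.29%, 1.46% and 2.18%. Gene-end loci thus had the highest share of the 3 places in all 4 libraries, and so did shifted positions at gene ends.

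For the snoRNAs, 90 loci overlapped a protein-coding gene and 47 did not. Inside, 11.1%, 20.0%, 6.67% and 14.4% were listed, against 3.36%, 4.53%, 3.23% and 4.27% of shifted positions. Outside, 10.6%, 21.3%, 4.26% and 12.8% were listed, against 2.31%, 3.20%, 2.66% and 4.09%. The inside share was the higher one in 3 libraries and the outside share in HSC replicate 2. This order rested on the U3 copies within Tex14. With the U3 loci left out the inside shares were 7.14%, 16.7%, 2.38% and 10.7% and the outside shares 8.89%, 20.0%, 2.22% and 11.1%, so the outside share was then higher in 3 libraries. Also with U3 left out, the 56 loci deep inside genes were listed at 3.57%, 12.5%, 0% and 7.14%, against 3.22%, 3.22%, 2.61% and 2.91%. HSC replicate 1 was thus close to its background there, and LSC replicate 1, with 0 listed loci, was below it. The 32 gene-end loci without U3 were listed at 12.5%, 31.25%, 6.25% and 18.75%, against 2.91%, 19.4%, 9.71% and 16.5% of shifted positions. At gene ends LSC replicate 1 was again below its background, and LSC replicate 2 was close to it. Of the 15 snRNA loci, 14 lay outside protein-coding genes, and the only one inside was Rnu1a1. Outside, 5, 5, 3 and 5 were listed, or 35.7%, 35.7%, 21.4% and 35.7%, against 2.78%, 1.39%, 1.39% and 4.17% of shifted positions.

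**Figure D4:**
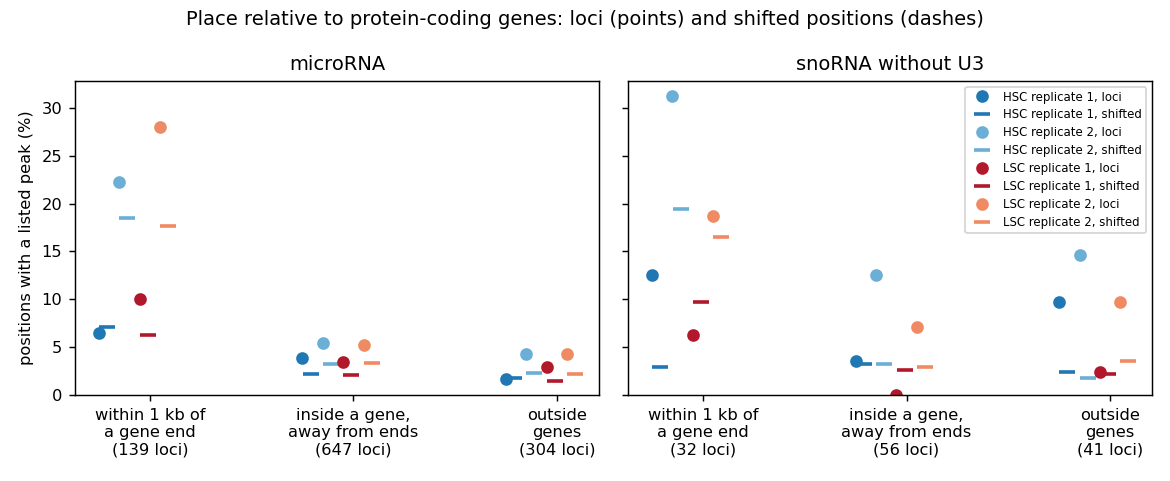
Percentage of microRNA loci and of snoRNA loci without U3 that had a listed peak (points), by place relative to protein-coding genes, with the shifted positions of the same place (dashes) in the colour of the library. Gene-end loci are highest for microRNAs in all 4 libraries (6.47% to 28.1%), and shifted positions at gene ends are raised with them.

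Of the 5 microRNA loci listed in every library, Mir707, Mir1934 and Mir8098 lay within 1 kb of a protein-coding gene end, Mir5123 lay deeper in a gene and Mir101c lay outside genes. Mir707 lies in Akt1s1, a subunit gene of the TORC1 complex, close to Tbc1d17, and had peaks of 103, 97.3, 66.6 and 132 fold (chr7:44849699-44849771). Mir1934, within 1 kb of an end of Mpdu1, had 125, 48.7, 117 and 132 fold (chr11:69663043-69663125), and its summits lay 442 to 617 bp from its start. Mir8098, near an end of Wdfy2, had 24.9, 34.6, 51.8 and 55.9 fold, with the weakest in HSC replicate 1 (chr14:62837721-62837857). Mir5123, inside the galactosyltransferase gene B4galt1 and away from its ends, had 47.8, 18.7, 104 and 32.6 fold (chr4:40850056-40850138), with the widest spread of these 4 loci.

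Mir101c differed from them in its place on the chromosome and in the fold of its peaks. Its locus (chr9:3038669-3038743) is the first annotated gene of chromosome 9, and its peaks reached 255, 2282, 9029 and 136 fold. In HSC replicate 2 and LSC replicate 1 the peak was 38345 bp wide and began at position 2999991, while in the other 2 libraries it was 1632 and 1620 bp wide. It ended before the RNA began, at 3038335 or, in LSC replicate 2, at 3038323, and so touched only the flank. The strongest peak also touched only the flank at Mir1934 in HSC replicate 1 and LSC replicate 2. The same was so at Mir8098 in both libraries numbered 1 and at Mir5123 in both HSC libraries. In HSC replicate 2 the summit lay 2972 bp from the start of Mir5123. For Mir101c the distances were larger in 2 libraries. Its summits lay at -511, -38135, -38133 and -691 bp from the start of Mir101c. Mouse chromosome ends next to the centromere hold assembly gaps and repeats. Whether reads of repeats gave these peaks was not tested.

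Of the host transcripts, 4, 2, 5 and 3 of 13 were listed, or 30.8%, 15.4%, 38.5% and 23.1%, against 12.5%, 7.29%, 16.7% and 13.5% of shifted positions of the same length. These genes are long, up to 238660 bp, and were counted over their whole length. Mir22hg was listed in all 4 libraries with 67.2, 73.9, 146 and 90.0 fold, and its summits lay at 36, -131, -165 and -230 bp from its start. The hairpin of Mir22, a microRNA studied in blood stem cells, lies in this transcript, and its own window had 0 listed peaks, with unlisted ones of 3.84 and 8.68 fold in the LSC libraries. The peak thus sat at the promoter of the precursor and not at the hairpin. The promoter is shown because the summits of all 4 libraries fall in it (RefSeq, GRCm38.p6, chr11:75461289-75461588, plus strand), with matches to GGGCGG and CCAAT in capitals on either strand.
Mir22hg promoter: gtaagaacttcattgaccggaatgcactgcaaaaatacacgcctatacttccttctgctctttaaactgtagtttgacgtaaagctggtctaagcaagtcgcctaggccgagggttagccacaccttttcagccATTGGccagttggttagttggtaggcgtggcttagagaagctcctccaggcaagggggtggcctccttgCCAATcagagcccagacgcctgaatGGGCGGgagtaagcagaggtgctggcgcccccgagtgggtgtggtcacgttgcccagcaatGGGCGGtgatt

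Searched on both strands, the 300 bases held GGGCGG, the GC box, 2 times and CCAAT 2 times. GGGCGG is found in 35.7% and CCAAT in 37.4% of the 32851 promoters of the same length in the table. They held CACGTG, the E box, 0 times (7.15% of promoters) and TGACGTCA, the cyclic AMP response element, 0 times (1.79%). These matches describe the sequence and mark no binding site.

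Some clusters of many loci had no listed peak. The imprinted cluster on chromosome 12 from Mir379 to Mir3072 (39 loci) and the stretch from Mir770 to Mir136 (16 loci) had 0 listed loci in each library, as did the imprinted Snord116 cluster on chromosome 7 (17 loci). The Mir290a to Mir295 cluster, active in early embryos, also had 0 of 9. The 6 hairpins from Mir17 to Mir92-1, a cluster that drives proliferation in many tumours, had no peak at all. In the other 4 clusters, unlisted peaks were present at 12, 6, 13 and 3 loci in at least 1 library. Shifted positions of these 5 clusters were listed at 0% to 6.67%, so counts of 0 among so few loci are near the background.

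The cluster with most members, Mir466m to Mir669h on chromosome 2 (71 loci of near-identical hairpins), had 13, 0, 3 and 0 listed loci, or 18.3%, 0%, 4.23% and 0%, against 0.690%, 2.24%, 0.690% and 0.862% of its shifted positions. HSC replicate 1 was the high library, and HSC replicate 2 had 0. The 13 loci belong to the 39 microRNA loci listed in HSC replicate 1, so that count rests partly on one repeated region. The same holds for the microRNA excess over shifted positions in that library (3.58% against 2.34%). It was not computed without the cluster.

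The cluster of Mir23a, Mir27a, Mir24-2 and Mir3074-2 (chr8:84208518-84208921) was listed in 3 libraries. One peak touched all 4 windows in each of these libraries, with 25.6, 59.8 and 20.1 fold, and HSC replicate 1 had no peak. The summits did not coincide. They lay 1896 and 732 bp after the start of Mir23a in HSC replicate 2 and LSC replicate 1, and 150 bp before it in LSC replicate 2.

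A list of 44 microRNAs known in blood cells was followed, of which 43 were on chromosomes 1 to 19. Of these, 2, 7, 3 and 8 were listed, 0 in all 4 libraries, 34 in none, and 21 had no peak of any strength in any library. The listed shares were 4.65%, 16.3%, 6.98% and 18.6%, against the 3.58%, 7.25%, 4.13% and 7.89% of all microRNA loci, but several of these loci share a peak with a neighbour. Mir191, a microRNA abundant in blood cells, was listed at 46.5, 69.2 and 39.8 fold and had no peak in LSC replicate 1. Its neighbour Mir425 was listed in the libraries numbered 2 through the same peaks, which lie near the ends of Dalrd3 and Ndufaf3.

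Mir142, found across blood lineages, was listed at 27.3 and 52.3 fold in both libraries numbered 2. It had unlisted peaks of 6.83 and 9.52 fold in HSC replicate 1 and LSC replicate 1. Mir126a, a microRNA of endothelial and stem cells within Egfl7, was listed at 18.7 and 19.3 fold in the libraries numbered 2 alone. Mir150, a microRNA of mature lymphocytes, was listed in LSC replicate 2 at 21.2 fold, and Mir181b-2 in HSC replicate 1 at 61.0 fold. Of these loci, 0 were listed in both libraries of one group and in neither of the other.

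**Figure D5:**
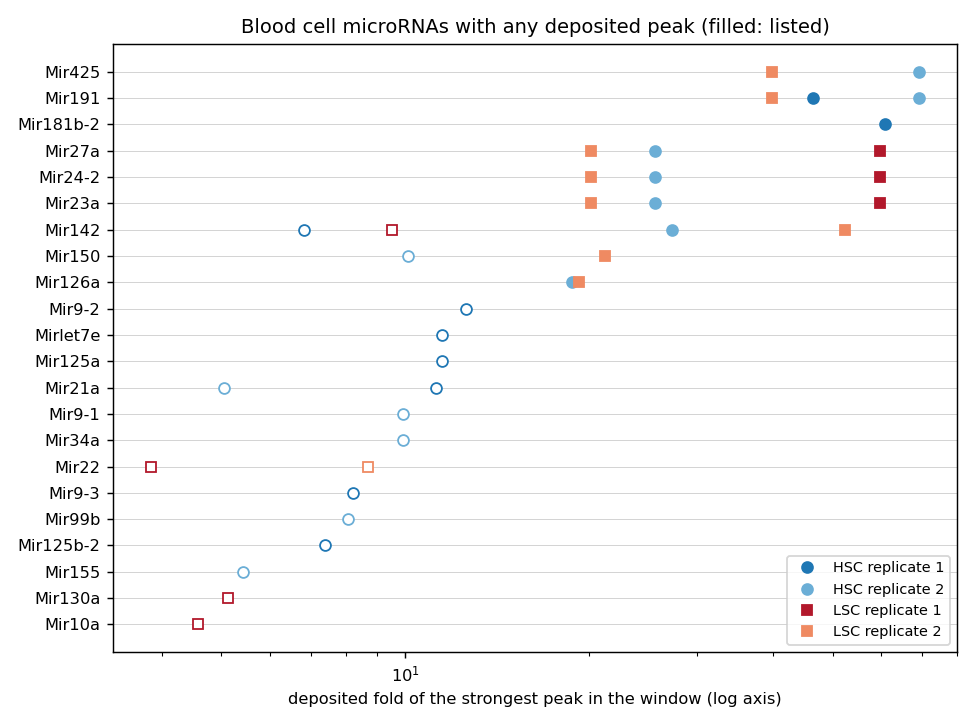
Deposited fold (log axis) of the strongest peak at each of the blood cell microRNA loci that had any peak, with filled symbols for listed and open symbols for unlisted peaks. Of the 43 loci, 21 had no peak and are not drawn. Filled symbols are confined to 9 loci, and most loci have a symbol from 1 library only.

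No difference between the groups in the share of small RNA loci listed was detected. The share was 6.96% ± 3.02 (SD, n = 2) in HSC and 6.76% ± 3.07 (SD, n = 2) in LSC libraries. The difference, LSC minus HSC, was -0.201 percentage points, less than the spread within either group (two-sided exact permutation p = 0.667, where 0.333 is the smallest that 2 against 2 libraries allow). Within replicate numbers it was -0.242 points for number 1 and -0.161 for number 2.

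Few loci followed the cell type. Listed in both LSC libraries and neither HSC library were 3 loci, against 15 shifted positions (0.124%), and listed in both HSC libraries and neither LSC library was 1, against 14 shifted positions (0.116%). The LSC loci were all microRNAs without an HSC peak of any strength. Mir130b had peaks of 73.9 and 20.1 fold (chr16:17124061-17124142, in 2610318N02Rik), Mir345 had 49.2 and 22.0 fold (chr12:108836973-108837068) and Mir7045, in the remodeller gene Chd4, had 35.7 and 50.4 fold (chr6:125097024-125097086). At each of the 3, the summits of the 2 libraries lay over 1000 bp apart, on opposite sides of the hairpin.

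The HSC locus was Snord52 (chr17:34950950-34951008), a box C/D snoRNA in the lncRNA 1110038B12Rik, with 36.9 and 14.04 fold and no LSC peak. As a share, 3 of 1242 is 0.242% and 1 of 1242 is 0.0805%, beside 0.124% and 0.116% of shifted positions.

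Most loci listed in exactly 2 libraries were those of both libraries numbered 2. Of the 40 such loci, 32 were listed in the libraries numbered 2, 25 of them microRNAs, and 0 in the libraries numbered 1. A further 44 loci were listed in HSC replicate 2 alone and 36 in LSC replicate 2 alone, against 29 and 26 for the libraries numbered 1. These patterns were not counted over shifted positions. Shifted positions were also listed more often in the libraries numbered 2 (3.93% and 3.94%) than in those numbered 1 (2.42% and 2.21%). The pattern may therefore not be particular to these loci. In total 1030 loci were listed in no library. At the threshold, the last loci inside and first outside had folds of 23.0 and 22.4 in HSC replicate 1, 12.7 and 12.5 in HSC replicate 2, 28.9 and 25.8 in LSC replicate 1, and 18.8 and 18.2 in LSC replicate 2.

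Protein genes of small RNA biology were followed at their ends (within 1000 bp), where 10.6%, 25.1%, 10.96% and 25.5% of 21883 protein-coding genes were listed. Genes of snRNA transcription, namely SNAPc subunits, the activators Pou2f1 and Zfp143 and Integrator subunits, were listed at 5, 8, 2 and 8 of 12. Zfp143, whose product binds snRNA promoters, and Ints6 were listed in all 4 libraries, and Pou2f1 and Snapc5 in 3. Box C/D core genes, whose products bind every C/D snoRNA, were listed at 2, 3, 2 and 2 of 4, with the methyltransferase gene Fbl listed in all 4. Box H/ACA core genes were listed at 0, 3, 0 and 3 of 4. MicroRNA processing genes, from Drosha to the Argonautes, were listed at 0, 4, 0 and 3 of 15, and snRNP assembly genes at 0, 1, 0 and 0 of 3.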

How the data were processed

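CUT&Tag for Ruvbl2 was deposited as 1 peak list per library. Per the submitters' processing notes, FastQC 0.11.5, Bowtie2 2.2.9, MACS2, ChIPseeker and build mm10 were used. Calling threshold, background model, duplicate removal and the treatment of reads with several matches: not given in the sources used here. The authors' columns hold a score, a fold over background (ratio), −log10 p and −log10 q values and the summit offset. Depth and the precision it gives are unknown. Records of identical start and end were collapsed, and each library was reduced to its 20000 strongest peaks by −log10 p (autosomes and sex chromosomes only). Ranking by number fixes the count of peaks but not their width. Loci and gene spans came from RefSeq's gene table (GRCm38.p6), whose rows carry no strand. Each locus window was moved by 20, 40, 60, 80 and 100 kb to both sides, and moved windows that touched a member or left the range of annotated genes were dropped. Shares were compared over libraries with exact permutation and sign-flip tests, and positions were never treated as replicates. Named loci were the snRNA loci, all loci listed in all 4 libraries, loci listed in 1 group without any peak in the other, and the fixed list of 44 blood microRNAs. Other loci named, such as those listed in 3 libraries, were chosen after their values were seen. One cluster of loci is not reported here. Members and lists were chosen with earlier results of these data known. Code was tested on simulated data, with Python 3.11.15, numpy 2.4.6, pandas 2.3.3, scipy 1.17.1 and matplotlib 3.10.9.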

Additional observations from a re-analysis of the deposited data

How the results depend on the processing

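Of 79 alternative values, 55 were called the same, 20 moved and 4 reversed. Counts were called the same within a factor of 1.5, and differences when their direction held, whatever their size. For example, LSC minus HSC went from -0.201 to -2.70 points with all deposited peaks and kept its direction. The mean excess over shifted positions stayed above 0 in every alternative run, from 6.16 to 16.3 points for snoRNAs, 1.46 to 5.34 for microRNAs and 25.7 to 49.9 for snRNAs. Away from protein-coding gene ends this excess was 7.83 points for snoRNAs, 1.75 for microRNAs and 26.4 for snRNAs. Leaving out U3 loci (6.16 points, above 0 in 3 of 4 libraries, exact sign-flip permutation p = 0.25) and leaving out snRNA pseudogenes (49.9 points) were added after seeing the data. The LSC minus HSC difference turned to 0.0471 points with overlapping windows merged and to 0.403 with the summit required in the window, and leaving out 1 library gave -2.38 to 1.97. With a replicate block it was -0.201 (exact sign-flip permutation p = 0.5). Same-numbered deviations correlated at 0.229 over all loci, but the labels tie the numbers to no animal or day. Whether same-numbered libraries share more than a number is therefore not known. Loci listed in all 4 libraries became 38 with all deposited peaks and 9 without flanks, and 15 to 25 with 1 library left out. LSC-only loci became 23 with all peaks, 6 with the summit required, 1 with 10000 and 7 with 40000 peaks, and 5 to 39 with 1 library left out. HSC-only loci became 39 with all peaks, 0 without flanks, with the summit required or with 10000 peaks, 6 with 40000 peaks, and 1 to 45 with 1 library left out. The causes were not tested. With 2 libraries a group and unknown depth, a locus without a peak was not shown to be unbound.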

Other observations

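Small RNA genes with other symbols, which the rule did not take, were counted in the same way. Transfer RNA genes (391 in the table) were listed at 30, 70, 31 and 72 loci in HSC replicate 1, HSC replicate 2, LSC replicate 1 and LSC replicate 2. These are 7.67%, 17.9%, 7.93% and 18.4%, against 3.00%, 5.12%, 2.72% and 5.14% of shifted positions, and 3 (0.767%) were listed in all 4 libraries. Other snRNA genes, 915 loci, were listed at 3.61%, 4.37%, 2.73% and 4.04%, against 1.71%, 2.03%, 1.72% and 2.17%, with 15 (1.64%) listed in all 4. Predicted snoRNA genes, 1158 loci, were listed at 3.20%, 4.23%, 1.64% and 3.63%, against 1.52%, 1.70%, 1.22% and 1.40%, with 1 (0.0864%) listed in all 4. How many shifted positions of these 3 sets were listed in all 4 libraries was not counted.

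Single genes of other noncoding RNAs were viewed after the other values were seen. Rn7s2, a 7SL RNA gene of the signal recognition particle, was listed in all 4 libraries at 33.9, 25.8, 28.9 and 75.6 fold. The other 7SL gene, Rn7s1, was listed in both libraries numbered 2 alone, with 12.8, 36.5, 24.2 and 50.6 fold. Rn7sk, the gene of 7SK RNA, which holds back the elongation factor P-TEFb, was listed in 3 libraries at 15.2, 40.3 and 40.4 fold, and its 21.6-fold peak in HSC replicate 1 was not listed. Rmrp was listed in both libraries numbered 2 at 16.5 and 45.3 fold, and Rpph1, the RNase P RNA gene, in HSC replicate 2 and LSC replicate 1 at 12.7 and 61.5 fold. Of the Y RNA genes, Rny1 was listed in HSC replicate 2 at 15.9 fold and Rny3 in 0 libraries. Terc, the telomerase RNA gene, had no peak in any library.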
